A study of Danio rerio with 35 samples.

Results

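Old wildtype telencephali, taken from zebrafish of 18 months, were set against young mutant telencephali, taken from zebrafish of 5 months that carry mutations in both granulin genes grna and grnb. The libraries titled old wildtype (5) and young mutant (5) were chosen by their titles and made up 10 of the 35 libraries in the series, which also covers sorted Mpeg1+ and Olig2+ cells. Old wildtype animals carried no granulin mutation, and young mutants were grna-/-;grnb-/- with alleles that shift the reading frame, so that both genes can still be transcribed. Old mutants (grna-/-;grnb-/-, 18 months) and young wildtype animals (5 months), 5 libraries each, served as the other groups of the same table. The study asked whether a brain deficient in Grna and Grnb takes on, while young, the expression changes of an old brain. Old wildtype differs from young wildtype in age and young mutant differs from young wildtype in genotype, so a gene that age and mutation shift by the same amount shows no difference here. A difference between old wildtype and young mutant measures how far the groups part at that gene. Parentage, tank or dissection time may also differ between the groups, and their part cannot be told apart here from that of age and genotype. The wildtype and mutant animals are described as siblings. By the study's description each library is a separate biological replicate from a telencephalon of its own. The sources used here do not say which animals share parents, tanks or dissection times.

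Granulins are secreted proteins that are also sorted to lysosomes, and in the brain they are made largely by microglia and neurons. Sterol synthesis builds cholesterol from acetyl-CoA through mevalonate, squalene and lanosterol; in mammals its enzymes are switched on together by the transcription factor SREBP2 when cell cholesterol is low, and glia are a main source of it in the brain. The zebrafish telencephalon keeps dividing stem cells, the ependymoglia, along its ventricle throughout life, and genes of DNA replication and mitosis are transcribed mainly in such dividing cells. Roles of single genes named below are known mostly from mammals or yeast.

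Whole-telencephalon RNA was read as gene counts that the authors divided by a size factor for each library, called normalised counts here. Between 17626443 and 25781172 reads were assigned to genes in old wildtype libraries, and between 13891845 and 23646597 in young mutant libraries. The 19877 genes that averaged 5 or more normalised counts over the 20 telencephalon libraries were compared on the log2(normalised count + 1) scale with limma. In this fit the 4 groups share 1 estimate of the spread. The SE and p given below therefore also reflect the spread within young wildtype and old mutant. A gene was called when its Benjamini-Hochberg adjusted p was 0.05 or less and its log2 fold change, old wildtype over young mutant, was 1 or more in size. The added 1 makes fold changes of genes with few counts too small. With 5 libraries against 5, the smallest two-sided exact permutation p is 0.00794, and it is reached when the groups do not overlap.

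Some libraries stood apart from their group. Old wildtype 1 differed from the other old wildtype libraries by a root mean square of 0.869 to 0.983 on the log2 scale, whereas those differed from each other by 0.59 to 0.642. Genes of the pineal gland, a light-sensing organ lying on the telencephalon, were high in old wildtype 1 and young mutant 2 and 4. Over 35 genes their mean log2 level was 8.40 to 8.75, against 3.07 to 3.94 in the remaining old wildtype and young mutant libraries. Young wildtype 1, 4 and 5 (8.27, 8.39 and 8.94) and old mutant 4 (8.71) were high too. Young wildtype 2 and 3 were at 3.32 and 3.18. Old mutant 1 and 2 differed from old mutant 3, 4 and 5 by 0.925 to 1.1. Old mutant 1 and 2 differed from each other by 0.67, and old mutant 3, 4 and 5 by 0.668 to 0.92, so the split is not clean by this measure. Old mutant 1 and 2 are given separately below. Neuron and ependymoglial markers were present in both groups. All 27 genes listed for GABAergic and glutamatergic neurons were measured, with summed levels of 148038 to 161119 normalised counts in old wildtype and 137968 to 154473 in young mutant libraries, and all 31 ependymoglial genes were measured too. Markers of neighbouring regions varied within groups. Habenula and tectum genes had a mean log2 level of 7.27 in old wildtype 3 and 7.61 in young mutant 2. The other libraries of both groups had 5.71 to 6.22. Young wildtype 1, 2, 4 and 5 had 7.59 to 8.01, and young wildtype 3 had 5.67. Summed pituitary and hypothalamic levels were 2380 to 50078.5 normalised counts in old wildtype and 3802 to 29893 in young mutant.

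The granulin transcripts were higher in old wildtype than in young mutant telencephali. The level of grnb (ENSDARG00000025081) was 80.1, 118, 57.2, 86.2 and 106 normalised counts in old wildtype 1 to 5, against 12.7, 20.2, 15.5, 20.3 and 14.9 in young mutant 1 to 5. The groups did not overlap, and the log2 fold change was 2.33 (SE 0.31, limma adjusted p = 6.03e-05). Young wildtype libraries held 408 to 905, so both groups stood far below that level, with log2 fold changes of -2.98 for old wildtype and -5.31 for young mutant against young wildtype. For grna (ENSDARG00000004954) the counts were 809.5, 668, 844, 752 and 2153 in old wildtype 1 to 5 and 582, 440.2, 444, 281 and 486 in young mutant 1 to 5. Every old wildtype library lay above every young mutant library, and old wildtype 5, whose interferon, microglia and MHC genes were also high, lay well above the other 4 (log2 fold change 1.11, SE 0.30, limma adjusted p = 0.0106). At grna young wildtype libraries held 397 to 882, and neither group was called against them. The log2 fold changes were 0.61 for old wildtype and -0.51 for young mutant (limma adjusted p = 0.129 and 0.230). The short granulin genes had few counts. The means of grna.1, called grn1 in the study, were 17.9 ± 19.5 in old wildtype and 8.78 ± 1.72 in young mutant (SD, n = 5 each), and those of grna.2 (grn2) were 8.88 ± 4.62 and 2.58 ± 2.64. Neither was called (limma adjusted p = 0.811 and 0.0672).

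Other genes that the study names for the telencephalon were not called between the groups. The type 2 cytokine il4 averaged 6.14 ± 3.397 normalised counts in old wildtype and 6.90 ± 5.53 in young mutant, against 17.1 ± 5.11 in young wildtype. Its log2 fold change was -0.01 (SE 0.47) between old wildtype and young mutant. The lysosomal peptidase TPP1 averaged 204 ± 33.6 in old wildtype and 214 ± 23.8 in young mutant. The telomerase gene tert stood at 14.6 ± 2.07 in old wildtype and 18.41 ± 2.53 in young mutant, and the il4 signal transducer stat6 at 53.6 ± 9.71 and 74.3 ± 12.6 (SD, n = 5 each, limma adjusted p = 0.398 and 0.0971). Young wildtype means were 296 for TPP1, 31.4 for tert and 93.8 for stat6, and neither group was called against them. The log2 fold changes, in that order, were -0.54, -0.998 and -0.79 for old wildtype (limma adjusted p = 0.0019, 0.00817 and 0.0066). For young mutant they were -0.47, -0.68 and -0.33 (limma adjusted p = 0.00709, 0.0709 and 0.264). Unadjusted exact permutation p between old wildtype and young mutant was 0.563 for TPP1, 0.0397 for tert and 0.0238 for stat6.

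Across all genes, 640 were higher in old wildtype than in young mutant (3.22% of those tested) and 918 were lower (4.62%), which makes 1558 called genes (7.84%). In the same model 1035 genes were called higher (5.21%) and 1125 lower (5.66%) in old wildtype against young wildtype. In young mutant against young wildtype 987 genes were called higher (4.97%) and 760 lower (3.82%). All 5 old wildtype libraries lay above all 5 young mutant ones at 2092 genes (10.5%) and below them at 2042 (10.3%). The median log2 fold change of all genes was -0.01.

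At the 1558 called genes, the young wildtype mean shows which group lay farther from it. The young wildtype mean lay nearer to young mutant at 922 genes (59.2%) and nearer to old wildtype at 636 (40.8%). Of the 640 genes higher in old wildtype, 353 had young wildtype nearer to young mutant, and of the 918 lower ones 569 did. Single young wildtype libraries were nearer to old wildtype at 38.4% to 45.7% of the called genes. Old mutant libraries split: 1 and 2 were nearer to old wildtype at 71.6% and 75.4% of the called genes, and 3, 4 and 5 at 24.1%, 18.8% and 29.3%. No single share therefore describes all 5 old mutant libraries, although at some called genes, such as mhc1uba and st3gal1 below, all 5 stood together. Whether parentage, handling or dissection time goes with the split was not tested.

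**Figure D1:**
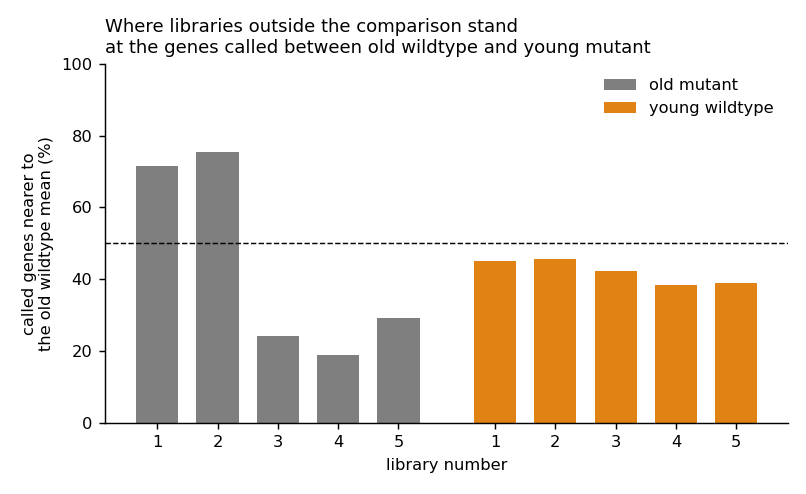
Share of the 1558 genes called between old wildtype and young mutant (y axis, percent) at which each old mutant library (grey) and each young wildtype library (orange) lay nearer to the old wildtype mean than to the young mutant mean, with a dashed line at 50%. Old mutant 1 and 2 reach 71.6% and 75.4%, the other old mutant libraries stay at 29.3% or less, and the young wildtype libraries lie between 38.4% and 45.7%.

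Sterol synthesis genes and, more weakly, interferon response genes were on balance higher in old wildtype, and genes of mitosis, DNA replication, immediate early response, matrix, chemokines and muscle were on balance lower. The median log2 fold change was 1.08 over 23 sterol synthesis genes and 0.54 over 37 interferon genes. It was -0.64 over 59 mitosis genes, -0.46 over 45 DNA replication genes and -0.94 over 40 immediate early genes, beside -0.01 over all genes. In each of these 8 gene groups the share of members called in the prevailing direction was above that of all genes (3.22% higher, 4.62% lower). These data come from bulk tissue, in which fewer cells of a type and less RNA per cell cannot be told apart.

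**Figure D2:**
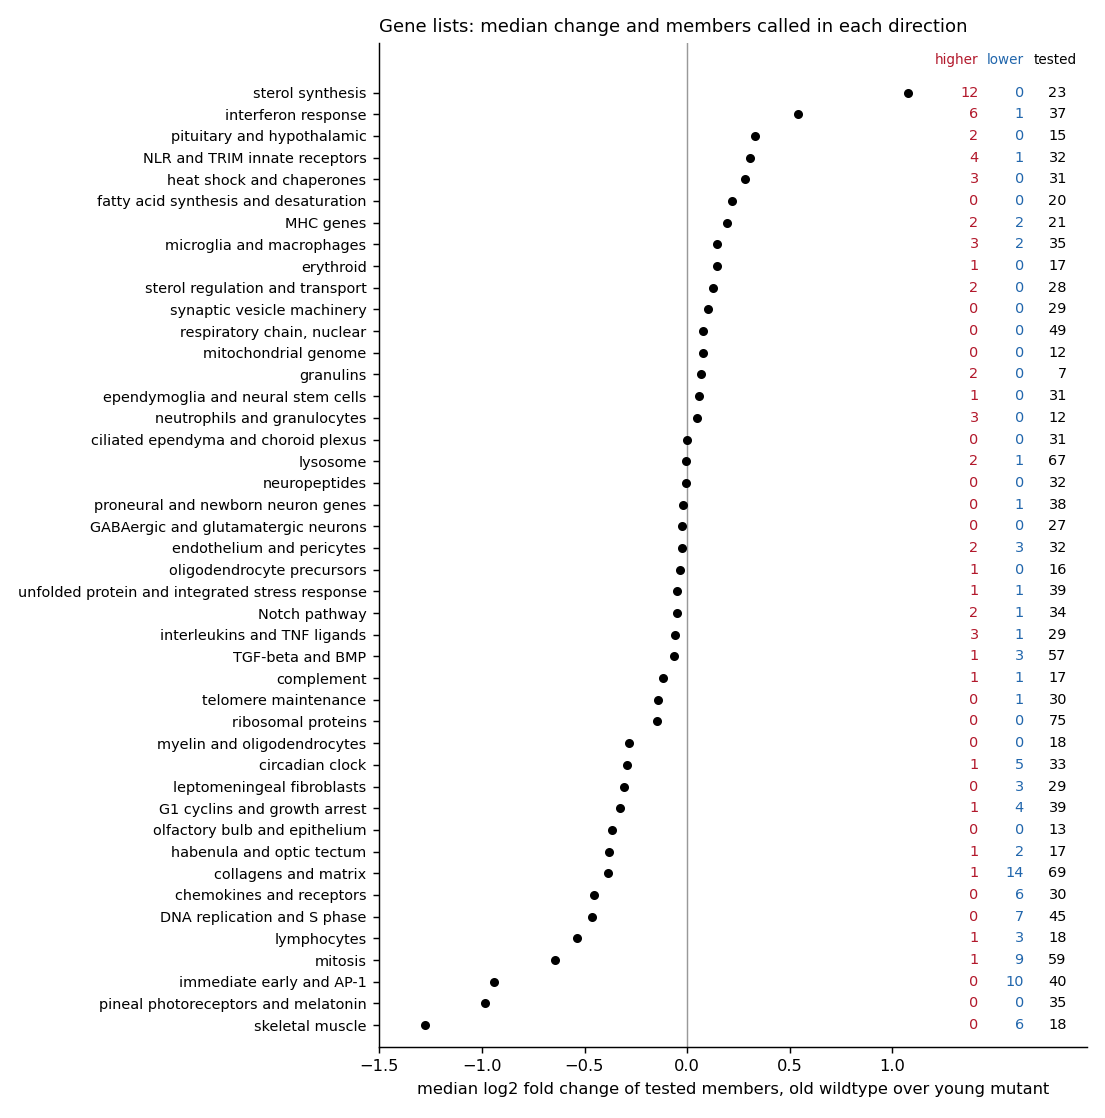
Median log2 fold change of the tested members of each gene list, old wildtype over young mutant (x axis), with the numbers of members called higher in old wildtype (red), called lower (blue) and tested (black) at the right. Sterol synthesis lies farthest to the right, with 12 of 23 members called higher, and skeletal muscle farthest to the left, with 6 of 18 called lower.

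Sterol synthesis enzymes were higher in old wildtype than in young mutant telencephali at 12 of the 23 measured, where 3.22% of all genes were called higher. None was called lower, and 21 had a log2 fold change above 0. Against young wildtype, old wildtype had 5 members higher and 1 lower (median 0.74), and young mutant had 0 higher and 3 lower (median -0.28). The first committed steps, which lead to mevalonate, are carried out by hmgcs1 and hmgcra. For the HMG-CoA synthase hmgcs1 (ENSDARG00000103025) old wildtype 1 to 5 held 1605, 5664, 7002, 5363 and 6479 normalised counts, against 3963, 893, 1584, 1107 and 1017 in young mutant 1 to 5. Old wildtype 2 to 5 lay above every young mutant library, but old wildtype 1 was low and young mutant 1 was high, so the groups overlapped (log2 fold change 1.69, SE 0.49, limma adjusted p = 0.0165). The rate-limiting reductase hmgcra, named after its values were seen, was not called, at 173 ± 87.9 in old wildtype and 98.4 ± 63.6 in young mutant. Both stood below young wildtype, at 759 ± 552 (SD, n = 5 each).

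Genes of later steps were among the 12. The mevalonate pathway kinase pmvk averaged 209 ± 32.1 in old wildtype and 108 ± 44.1 in young mutant (log2 fold change 1.00), and the decarboxylase mvda 418 ± 120.2 and 183 ± 123 (1.31). The squalene synthase fdft1, which commits the pathway to sterols, held 147, 307, 297, 306 and 377 normalised counts in old wildtype 1 to 5 and 216, 88.7, 83.8, 81.2 and 77.6 in young mutant 1 to 5. Only the low old wildtype 1 and the high young mutant 1 crossed (log2 fold change 1.44, SE 0.35, limma adjusted p = 0.00526). The isomerase idi1, which makes the building block for squalene, and the squalene epoxidase sqlea missed the call and were named after their values were seen. Their log2 fold changes were 0.87 (limma adjusted p = 0.0145) and 2.40 (0.0571). The second squalene epoxidase gene sqleb was called at few counts, 10.8 ± 4.29 in old wildtype and 2.43 ± 2.33 in young mutant (1.99).

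The lanosterol synthase lss, which closes the sterol rings, held 270.2, 985, 960.1, 855 and 817 normalised counts in old wildtype 1 to 5, against 414, 62.9, 147, 109 and 145 in young mutant 1 to 5. With a log2 fold change of 2.30 (SE 0.75, limma adjusted p = 0.028) it was among the larger differences of the list. The demethylase cyp51 averaged 4177 ± 1186 in old wildtype and 1651 ± 1116 in young mutant (log2 fold change 1.48), and the reductase tm7sf2 829 ± 239 and 397 ± 99.7 (1.02). The dehydrogenase nsdhl, the isomerase ebp and the desaturase sc5d, which trim lanosterol towards cholesterol, had log2 fold changes of 1.47, 1.08 and 1.32. The final reductase dhcr7 (ENSDARG00000103226) differed in another way from the rest. It held 797, 930.0, 1014, 899.7 and 1004 in old wildtype 1 to 5, 222, 110.0, 141, 100.02 and 158 in young mutant 1 to 5, and 388, 799, 1102, 1068 and 1029.7 in young wildtype 1 to 5. It was the 1 sterol synthesis gene at which the groups did not overlap, and the young mutant level was the one away from young wildtype (log2 fold change 2.71 for old wildtype over young mutant, SE 0.52, limma adjusted p = 0.00122, and -2.54 for young mutant over young wildtype). Old mutants split at dhcr7, with 687 and 809 in old mutant 1 and 2 and 89.7, 165 and 95.5 in old mutant 3, 4 and 5.

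**Figure D3:**
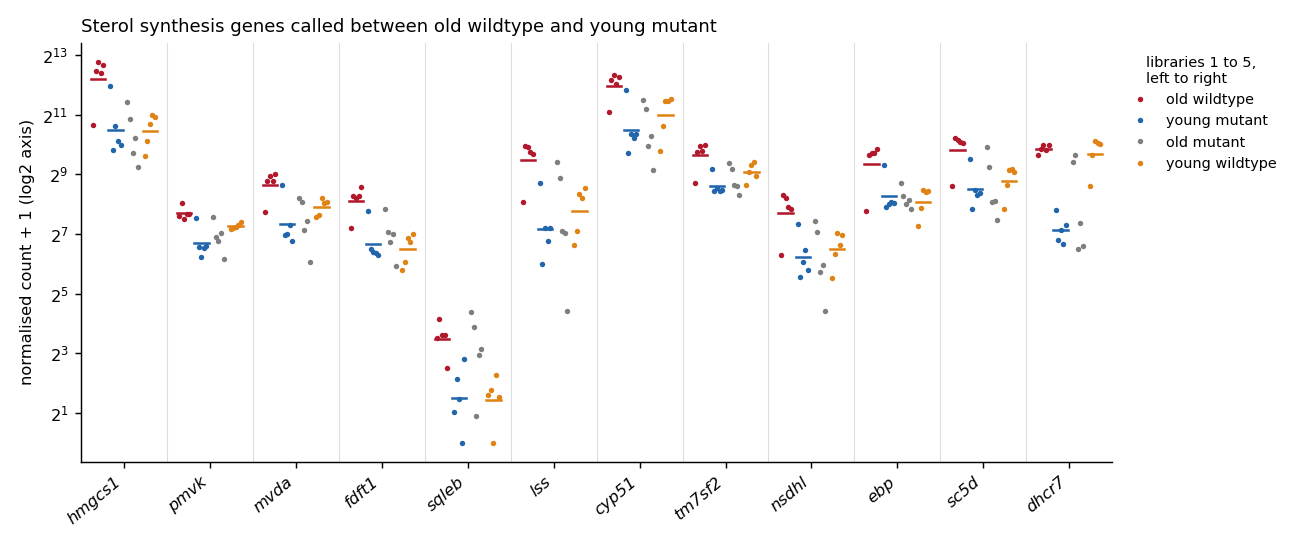
Normalised count plus 1 (log2 axis) of the 12 sterol synthesis genes called between old wildtype and young mutant, with 1 point for each library and a line at the mean of the log2 values of old wildtype (red), young mutant (blue) and young wildtype (orange). Old mutant libraries (grey) have points only. Old wildtype 1, the leftmost red point, and young mutant 1, the leftmost blue point, lie towards the other group at most genes, and dhcr7 is the gene with no overlap.

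How many sterol synthesis genes were called depended on single libraries. Over the 23 genes the mean log2 level was 8.38 in old wildtype 1 and 9.38 to 9.53 in old wildtype 2 to 5, and it was 8.90 in young mutant 1 and 7.70 to 7.99 in young mutant 2 to 5. The number called higher was 17 without old wildtype 1, 17 without young mutant 1 and 18 without both, but 4 without old wildtype 2, 6 without old wildtype 3 or old wildtype 5, 7 without old wildtype 4 or young mutant 5, and 5 without young mutant 2 or young mutant 4. In these fits the median log2 fold change lay between 0.988 and 1.725. Young wildtype libraries had mean levels of 7.83 to 8.91, old mutant 1 and 2 of 9.01 and 8.73, and old mutant 3 to 5 of 7.19 to 7.98. Among 28 genes of sterol regulation and transport, 2 were called higher and 0 lower (median 0.13), beside 3.22% and 4.62% of all genes. Against young wildtype, old wildtype had 5 of these higher and 1 lower (median 0.37), and young mutant had 3 higher and 1 lower (median 0.27). The lipoprotein receptor ldlrb, an uptake route for cholesterol, held 368 to 403 normalised counts in old wildtype and 145 to 245 in young mutant with no overlap (log2 fold change 1.08, limma adjusted p = 0.00632). The apolipoprotein apoa1b had few counts, 18.9 ± 8.56 against 4.97 ± 4.45. Of 20 fatty acid synthesis and desaturation genes none was called in limma (median 0.22).

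DNA replication genes were lower in old wildtype than in young mutant telencephali. Of 45 measured, 7 were called lower and 0 higher, and 42 had a log2 fold change below 0. At 12 of the 45 every old wildtype library lay below every young mutant one, which held for 10.3% of all genes. Against young wildtype, old wildtype had 1 higher and 3 lower (median -0.37), and young mutant had 1 higher and 2 lower (median 0.13). Geminin, gmnn (ENSDARG00000035957), which blocks a second round of replication, was at 2.29, 2.95, 6.44, 5.12 and 3.46 normalised counts in old wildtype 1 to 5 and at 155, 153, 168, 219 and 176 in young mutant 1 to 5. Young wildtype libraries held 148 to 179, so old wildtype alone of these groups was low. Old mutant 1 and 2 had 9.85 and 8.44, whereas old mutant 3, 4 and 5 had 174, 167 and 165 (log2 fold change of old wildtype over young mutant -5.17, SE 0.68, limma adjusted p = 6.72e-05).

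In its size and its split of old mutants, gmnn resembled the all-or-none genes given further below. The replication list as a whole did not split old mutants this way. Its mean log2 level was 6.42, 6.33, 6.39, 5.98 and 5.79 for old mutant 1 to 5. Every young mutant library lay higher, at 6.53 to 7.09, and old wildtype libraries held 6.07 to 6.34. The other 6 called replication genes lay near the fold threshold. The helicase subunit MCM4, which unwinds DNA at the fork, held 196, 157, 143, 183 and 175 in old wildtype 1 to 5 and 515, 357, 504, 330.5 and 249.7 in young mutant 1 to 5. The groups did not overlap (log2 fold change -1.15, SE 0.30, limma adjusted p = 0.00868). Helicase cofactors GINS1 and GINS2 had log2 fold changes of -1.07 and -1.12, and the primase-associated POLA2 of -1.04. The S phase regulators E2F8 and ccne2 stood at -1.22 and -1.01, with ccne2 at 50.8 to 60.6 normalised counts in old wildtype and 95.5 to 129 in young mutant. The replication clamp PCNA, named after its values were seen, moved little, at 1412 ± 140.2 in old wildtype and 1587 ± 186 in young mutant (log2 fold change -0.17, limma adjusted p = 0.144).

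Mitosis genes followed the same direction. Of 59 measured, 9 were called lower and 1 higher, 56 had a log2 fold change below 0, and at 20 the old wildtype libraries all lay below the young mutant ones. That order held for 10.3% of all genes. Against young wildtype, old wildtype had 0 higher and 6 lower (median -0.54), and young mutant had none called (median 0.07). The mean log2 level over the mitosis list was 5.99, 5.83, 5.66, 5.16 and 4.74 for old mutant 1 to 5. Old wildtype libraries stood at 5.72 to 6.03, and young mutant libraries at 5.97 to 6.83. The chromosome passenger kinase aurkb held 43.5, 53.1, 55.6, 64.9 and 46.1 normalised counts in old wildtype 1 to 5, against 117, 126, 129, 94.2 and 108 in young mutant 1 to 5. Young wildtype held 81.6 to 141, overlapping young mutant and not old wildtype (log2 fold change of old wildtype over young mutant -1.11, SE 0.16, limma adjusted p = 0.000124). The cell cycle kinase CDK1 was at 40.1 to 61.5 in old wildtype and 62.7 to 154 in young mutant (-1.04). The cytokinesis kinesin kif20a was at 17.2 to 41.9 and 44.8 to 83.8 (-1.32), and the kinetochore gene nuf2 at 70.8 to 91.1 and 155 to 203 (-1.103).

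Spindle checkpoint genes were among the lower ones, with MAD2L1 at a log2 fold change of -1.001 and bub1bb at -1.06. The microtubule binders nusap1 and hmmr had -1.16 and -1.12, and the condensin subunit NCAPH had -1.05. The 1 mitosis gene called higher was PRC1, annotated to a cross-linker of spindle microtubules, with 275, 586, 590.4, 608 and 547 normalised counts in old wildtype 1 to 5 and 153, 159, 184, 126 and 122 in young mutant 1 to 5 (log2 fold change 1.76, SE 0.49, limma adjusted p = 0.0119). The proliferation marker mki67, named after its values were seen, averaged 159.5 ± 18.9 in old wildtype and 312 ± 108 in young mutant, with 312 ± 56.7 in young wildtype. Its groups did not overlap, but its log2 fold change of -0.90 was under the fold threshold (limma adjusted p = 0.0398).

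**Figure D4:**
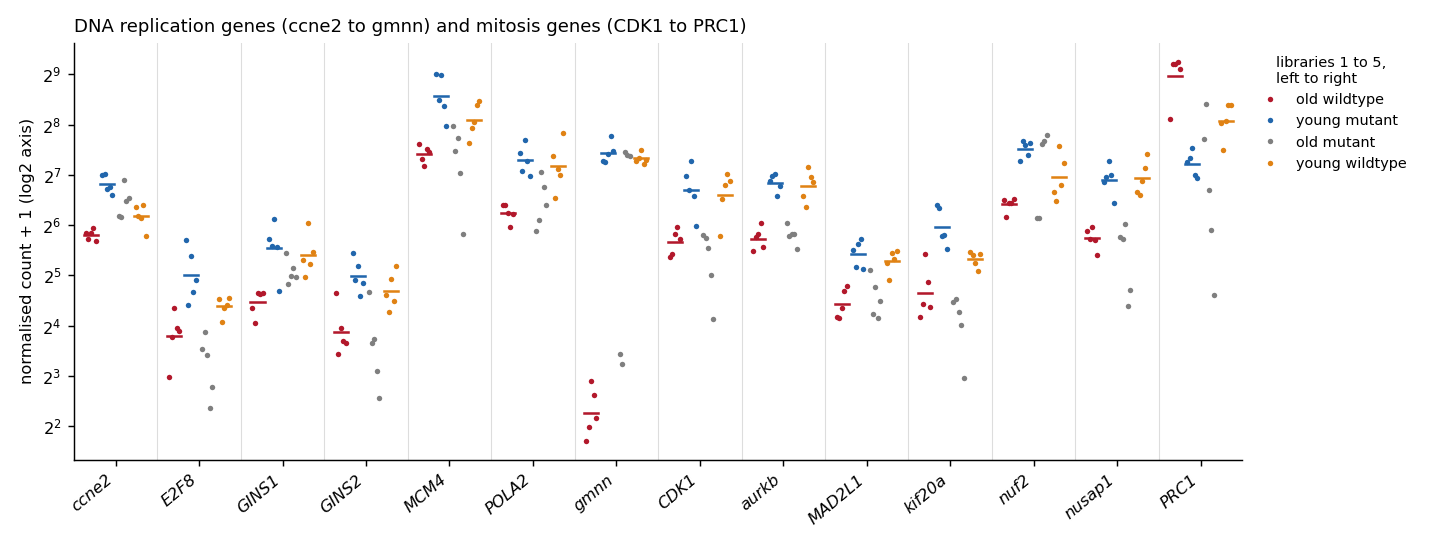
Normalised count plus 1 (log2 axis) of called DNA replication genes (ccne2 to gmnn) and of called mitosis genes (CDK1 to PRC1), 1 point for each library, with lines at the mean of the log2 values of old wildtype (red), young mutant (blue) and young wildtype (orange). The old wildtype mean lies below the young mutant mean at every gene shown but PRC1, and gmnn is low in old wildtype and in old mutant 1 and 2 only.

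The number of cell cycle calls moved with single libraries and with the scaling. Called replication genes numbered 11 without young mutant 5, 4 without old wildtype 1 and young mutant 1, and 3 under quantile normalisation. Called mitosis genes numbered 15 without young mutant 5, 5 without young mutant 1, 4 without young mutant 3 and 4 under quantile normalisation. Ependymoglial markers, whose cells divide in this tissue, had 1 called higher of 31 (median 0.06), where 3.22% of all genes were called higher. Their summed levels were 252864 to 314303 normalised counts in old wildtype and 251149 to 297073 in young mutant. The called ependymoglial gene was HEY1, a Notch target kept on in resting stem cells, which averaged 580.2 ± 107 against 285 ± 123 (log2 fold change 1.098, limma adjusted p = 0.00173). Among 38 proneural and newborn neuron genes 1 was called lower, where 4.62% of all genes were. It was the neuronal differentiation factor NEUROD4, at 34.6 to 72.5 in old wildtype and 79.6 to 175 in young mutant (-1.11). HEY1 and NEUROD4 are given as single genes, not as shifts of their lists.

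Among 39 genes of G1 cyclins and growth arrest, 4 were called lower and 1 higher in old wildtype (median -0.33), beside 4.62% and 3.22% of all genes. The cell cycle inhibitor locus cdkn2a/b, a marker of senescent cells in mammals, held 218, 216, 126, 119.5 and 144 normalised counts in old wildtype 1 to 5, against 58.3, 115, 19.0005, 66.7 and 107 in young mutant 1 to 5. No libraries overlapped (log2 fold change 1.34, SE 0.34, limma adjusted p = 0.00621). Young wildtype held 128 to 186, so the low group was young mutant (-1.26 over young wildtype). The stress-induced gene tp53inp1 was at 183 to 284 in old wildtype and 522 to 677 in young mutant (-1.35, limma adjusted p = 9.78e-05), with young wildtype at 209 to 321. The growth arrest genes gadd45ba, GADD45B and gadd45ga had log2 fold changes of -1.28, -2.02 and -1.33. These 3 genes are also induced by neuronal activity and stress, and old wildtype 1 was the highest old wildtype library at each.

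The largest differences were of the all-or-none kind and named few known pathways. The innate receptor gene nlrc11 (ENSDARG00000068621) held 1271, 1168, 999, 886 and 1252 normalised counts in old wildtype 1 to 5 and 2.12, 2.25, 3.45, 4.35 and 2.98 in young mutant 1 to 5. Young wildtype and old mutant libraries had 3.79 or fewer, so old wildtype was the group that stood alone (log2 fold change 8.13, SE 0.43, limma adjusted p = 4.09e-10). The unnamed gene si:ch211-181d7.2 followed suit, at 575 to 799 in old wildtype and 0 to 6.74 in young mutant. At ADAMTS7, a secreted protease, old wildtype had 116 to 292 and young mutant 3.45 to 6.37. The clathrin adaptor subunit ap1s3a had 53.8 to 86.5 and 0 to 3.18, and the potassium channel kcnk5a 71.7 to 186 and 4.97 to 7.86. All 3 were also high in old mutant 1 and 2 (60.1 or more) and at 13.2 or fewer in old mutant 3, 4 and 5.

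Other large differences placed young mutant on its own or with part of the old mutants. The predicted gene si:dkey-253d23.4 was at 522 to 972 in old wildtype, against 13.8 to 33.3 in young mutant, and 1026 to 1179 in young wildtype libraries. The phosphatase ctdnep1b held 4.58, 12.8, 6.44, 10.2 and 4.61 in old wildtype 1 to 5, against 396, 438, 386, 364 and 399 in young mutant 1 to 5. Young wildtype stood at 4.87 to 8.85, and old mutant 3, 4 and 5 at 333, 397 and 295 (log2 fold change of old wildtype over young mutant -5.60, limma adjusted p = 0.00041). The sialyltransferase st3gal1 was high in young mutant alone, at 68.2 to 165, against 0.983 to 4.83 in old wildtype and 4.19 or fewer in young wildtype and old mutant. The BMP family ligand gdf2 was at 0 to 2.29 in old wildtype and 47.5 to 113 in young mutant (-5.23), with young wildtype at 1.26 or fewer.

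At further genes with large differences single libraries departed from their group, or old mutants split. The gene si:ch211-209l18.4 was at 948 to 2089.6 in old wildtype and 2.98 to 8.98 in young mutant, but young wildtype 1 had 5.35 where young wildtype 2 to 5 had 636 to 746. The membrane receptor paqr3b was at 297 to 441 in old wildtype and 4.32 to 33.8 in young mutant. The gene si:ch211-114l13.1 was at 1.97 to 5.64 in old wildtype and 559.6 to 731 in young mutant, with 0.820 and 1.06 in old mutant 1 and 2 and 682 to 739.9 in old mutant 3 to 5. The chaperone cofactor ahsa1a was at 0 to 4.03 in old wildtype and at 115 to 299.8 in young mutant 2 to 5, but at 2.12 in young mutant 1. The unnamed gene si:dkey-182g1.3 was at 0 to 1.14 in old wildtype, against 100.5 to 158 in young mutant, and 0 to 1.26 in young wildtype libraries, with old mutant 3, 4 and 5 at 111 or more and old mutant 1 and 2 at 0.

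Immediate early genes, which neurons and other cells switch on within minutes of activity or stress, were lower in old wildtype. Of 40 measured, 10 were called lower and 0 higher, and at 9 of the 40 every old wildtype library lay below every young mutant one, which held for 10.3% of all genes. Against young wildtype, old wildtype had none called (median -0.50), and young mutant had 5 higher and 1 lower (median 0.23). The AP-1 subunit fosb, named after its values were seen, held 353, 296, 311, 506 and 347 normalised counts in old wildtype 1 to 5 and 1946, 1826, 1884, 1508 and 1599 in young mutant 1 to 5. Young wildtype held 193 to 548, like old wildtype (log2 fold change of old wildtype over young mutant -2.29, SE 0.79, limma adjusted p = 0.0373). The orphan receptor nr4a3 had 765 to 1661 in old wildtype and 3290.5 to 3840.2 in young mutant (-1.69). The phosphatase DUSP1 had 213 to 671 and 701 to 1325 (-1.66), the transcription factor csrnp1b 1570.0 to 2537 and 4599 to 6283 (-1.32), and fosl2l 35.4 to 54.2 and 76.4 to 129.5 (-1.03). The related transcription factor csrnp1a had 116 to 400.3 and 572 to 1236 (-1.58). At fosaa, also named after its values were seen, old wildtype 1 with 156 overlapped young mutant, at 103 to 201, and old wildtype 2 to 5 held 25.0 to 45.2.

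How many immediate early genes were called depended on which libraries were in the fit and on the method. The mean log2 level over the 40 genes was 10.23 in old wildtype 1 and 8.48 to 8.91 in old wildtype 2 to 5, 9.74 to 9.94 in young mutant, 8.79 and 8.84 in young wildtype 1 and 2, and 9.90 to 9.96 in young wildtype 3 to 5. The number called lower was 19 without old wildtype 1, 0 without young mutant 3, 1 without old wildtype 2 or young mutant 2, 2 without old wildtype 3, 3 without old wildtype 4, 4 without old wildtype 5, 6 without young mutant 5 and 6 under edgeR. Under edgeR the median was -0.45. Old mutant 1 and 2 stood at 8.25 and 8.30, and old mutant 3 to 5 at 9.94 to 10.26.

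Of 33 clock genes measured, 5 were called lower and 1 higher in old wildtype (median -0.29), where 4.62% of all genes were called lower and 3.22% higher. Set against young wildtype, old wildtype had 5 higher and 3 lower, and young mutant had 8 higher and 2 lower. The repressor nfil3-5 held 678, 1912, 2185, 1845 and 2257 normalised counts in old wildtype 1 to 5, against 5315, 6689, 5751, 5624 and 5008 in young mutant 1 to 5. The groups were well separated (log2 fold change -1.79, SE 0.31, limma adjusted p = 0.000576). Its relative nfil3-6 had 2244 to 3452 in old wildtype and 5686 to 10000.0 in young mutant (-1.55), and the nuclear receptor nr1d2a, a repressor in the clock loop, 2163 to 3920.3 and 6609 to 10344 (-1.59). The cryptochrome cry3a had 2793 to 3981 in old wildtype and 7993 to 9325 in young mutant (-1.28), with young wildtype at 8685 to 9203. The light-induced photolyase cry5 went the other way, at 114 to 232 and 36.07 to 84.1 (1.46, limma adjusted p = 0.000898). The number called lower was 2 without old wildtype 3 or 4 or young mutant 2, 3 or 5, and 3 without old wildtype 2.

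**Figure D5:**
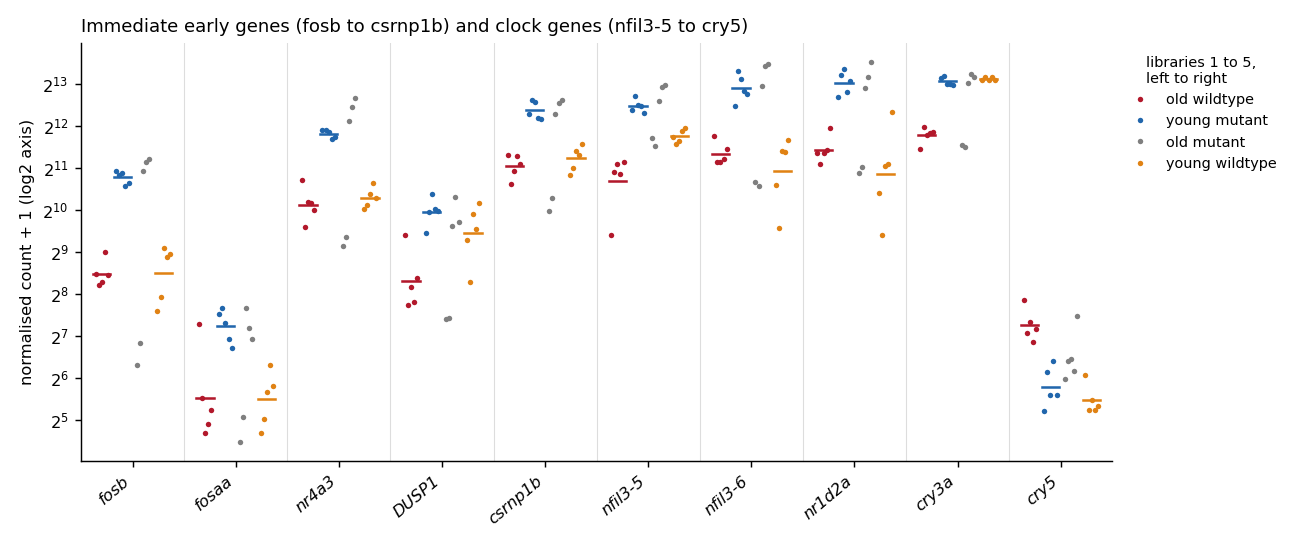
Normalised count plus 1 (log2 axis) of immediate early genes (fosb to csrnp1b) and clock genes (nfil3-5 to cry5), 1 point for each library, with lines at the mean of the log2 values of old wildtype (red), young mutant (blue) and young wildtype (orange). The young mutant mean lies above the old wildtype mean at every gene but cry5, and the old mutant libraries (grey) fall into 1 and 2 below 3, 4 and 5 at all but cry5.

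Interferon response genes were higher in old wildtype, most of all in a single library. Of 37 measured, 6 were called higher and 1 lower (median 0.54), beside 3.22% and 4.62% of all genes. Set against young wildtype, old wildtype had 12 higher and 2 lower (median 0.76), and young mutant had 3 higher and 2 lower (median 0.03). The antiviral transcription factor stat1b held 55.0, 108, 196, 134 and 1099.5 normalised counts in old wildtype 1 to 5 and 15.9, 8.98, 66.5, 4.35 and 14.9 in young mutant 1 to 5. Old wildtype 5 and young mutant 3 were the highest of their groups (log2 fold change 3.50, SE 0.88, limma adjusted p = 0.0072). The interferon-induced ifi27.2 had 59.5 to 992 in old wildtype and 9.55 to 32.8 in young mutant without overlap (3.49), and ifi27.3 had 1.14 to 126 and 0 to 6.91 (3.11). The viral RNA sensor ifih1 had 97.3 to 416 and 54.7 to 82.7 (1.14). The kinase eif2ak2, which halts translation in infected cells, was the member called lower, with 51.7 ± 15.6 against 109 ± 34.1 (-1.05). Over the list the mean log2 level was 7.93 in old wildtype 5 and 5.39 to 5.93 in old wildtype 1 to 4, against 5.84 in young mutant 3 and 4.99 to 5.26 in the other young mutants. The microglia and MHC lists were high in old wildtype 5 too. Microglia and macrophage genes had a mean log2 level of 8.09 in old wildtype 5 and 7.03 to 7.44 in old wildtype 1 to 4, against 7.21 to 7.53 in young mutant. MHC genes had 7.77 in old wildtype 5 and 6.78 to 7.11 in old wildtype 1 to 4, against 7.04 to 7.30 in young mutant. The part of microglia in the interferon and grna levels of old wildtype 5 was not tested. The number called higher was 2 without old wildtype 5 and 3 without old wildtype 3, young mutant 1 or young mutant 5, and without old wildtype 5 the median fell to 0.13.

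MHC genes, which vary between fish families, split in direction. Of 21 measured, 2 were called higher and 2 lower (median 0.19), beside 3.22% and 4.62% of all genes. The class I gene mhc1uba was at 27.5, 25.6, 64.4, 42.7 and 54.2 normalised counts in old wildtype 1 to 5 and at 2896, 2682, 2419, 3337 and 2984 in young mutant 1 to 5. Young wildtype held 2656 to 6945 and old mutant 16.9 to 27.08, so the 18-month groups were low whatever their genotype (log2 fold change of old wildtype over young mutant -6.11, SE 0.26, limma adjusted p = 2.95e-11). The class I gene mhc1zca had 14.5 to 22.2 in old wildtype, against 0 to 4.49 in young mutant, and 26.1 to 85.7 in young wildtype libraries. The peptide-loading genes tapbp.1 and tapbpl had log2 fold changes of -2.32 and 1.25. Reads of near-identical MHC alleles and copies may be split or lost in counting, so these levels are uncertain.

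Chemokines and their receptors were lower in old wildtype at each called gene. Of 30 measured, 6 were called lower and 0 higher (median -0.45). Set against young wildtype, old wildtype had 0 higher and 2 lower, and young mutant had 7 higher and 1 lower. The dendritic and T cell attractant ccl19a.1 held 16.0, 31.5, 21.7, 41.8 and 40.4 normalised counts in old wildtype 1 to 5, against 164, 159, 51.0, 186 and 219 in young mutant 1 to 5. Young wildtype was at 20.6 to 42.6, which is the old wildtype range (log2 fold change of old wildtype over young mutant -2.26, SE 0.38, limma adjusted p = 0.000391). The ligands ccl35.1, ccl38.6 and cxcl32b.1 had log2 fold changes of -1.99, -1.62 and -1.83. The receptors ccr9a and CCR7, the receptor for the ccl19 ligand, had -1.64 and -1.82, with CCR7 at 2.29 to 9.67 in old wildtype and 11.2 to 30.4 in young mutant. Old wildtype and young mutant did not overlap at any of these 6 genes, which were picked by their calls. Over the 30 genes every old wildtype library lay below every young mutant one at 9 and above at 1. These orders held for 10.3% and 10.5% of all genes.

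Markers of immune cells moved in small numbers, where 3.22% of all genes were called higher and 4.62% lower. Of 35 microglia and macrophage genes 3 were called higher and 2 lower (median 0.14), with summed levels of 19014.9 to 29240 normalised counts in old wildtype and 18619.8 to 21727.5 in young mutant, and no member at 0 throughout either group. The pore-forming mpeg1.2 was at 2.42 to 20.8 in old wildtype and 39.7 to 173 in young mutant (log2 fold change -3.14), and the chemoattractant receptor CMKLR1 at 71.8 to 210 and 220 to 313 (-1.24). A macrophage gene annotated MFAP4 (ENSDARG00000089667) was at 46.9 to 105 and 4.24 to 11.6 (3.03), and its relative mfap4 averaged 62.2 ± 20.3 and 26.3 ± 5.84 (1.16). The third gene called higher was grna itself.

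Neutrophil genes had 3 of 12 called higher and 0 lower (median 0.05), beside 3.22% and 4.62% of all genes. List sums were 2943.77 to 3592.18 normalised counts in old wildtype and 3013.29 to 3360.49 in young mutant. The mean log2 level over the list, in which each gene weighs the same, was 6.66 to 7.004 in old wildtype and 6.01 to 6.35 in young mutant, without overlap. Of the 12 genes 6 had a log2 fold change above 0 and 6 below, so this gap was not shared by the whole list. The elastase-like gene ela2 held 27.5, 26.5, 33.0, 36.7 and 33.5 in old wildtype 1 to 5 and 0, 0, 0.864, 1.45 and 1.99 in young mutant 1 to 5 (limma adjusted p = 0.000448). The oxidase subunit ncf1 had 335 to 509.9 in old wildtype, against 150.2 to 226 in young mutant, and 65.7 to 124 in young wildtype libraries, so both groups lay above young wildtype and old wildtype farther (1.13, limma adjusted p = 0.00146). The cytokine il1b, counted in this list too, averaged 7.34 ± 2.63 and 2.13 ± 2.205.

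Of 18 lymphocyte genes 1 was called higher and 3 lower (median -0.54), beside 3.22% and 4.62% of all genes. The heavy chain gene ighm was at 9.83 to 70.08 in old wildtype and 0.995 to 7.25 in young mutant (log2 fold change 2.91). The B cell receptor subunit cd79b averaged 1.92 ± 1.72 and 6.76 ± 3.73 (-1.503), and the interleukin receptor chain il2rb 13.3 ± 6.17 and 28.6 ± 8.52 (-1.104). CCR7 was the other one. B cell genes went in both directions. Summed over the list, levels were 3423.52 to 5128.3 in old wildtype and 3955.38 to 4618.84 in young mutant.

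Innate receptors of the NLR, TRIM and Toll-like families had 4 called higher and 1 lower of 32 (median 0.31), beside 3.22% and 4.62% of all genes. Apart from nlrc11 these were nlrc3l (384, 363, 417, 382 and 504 normalised counts in old wildtype 1 to 5, against 250.4, 249, 251, 125 and 117 in young mutant 1 to 5), the fish TRIM gene ftr14 (log2 fold change 1.11), the bacterial lipoprotein receptor tlr1 (1.08) and, lower, the flagellin receptor tlr5a (-1.49). These families hold many near-identical copies, and counts of single members are uncertain. Among 29 interleukin, growth factor and TNF genes 3 were higher and 1 lower. The cytokine signal transducer STAT3 was at 603 to 898 in old wildtype and 297 to 354 in young mutant (1.1005, limma adjusted p = 0.00411), and the lymphocyte growth factor il15l at 126 to 275 and 357 to 458 (-1.31). The growth factor igf1 was at 118 to 149 in old wildtype 2 to 5 but at 9.16 in old wildtype 1, and at 8.70 to 46.6 in young mutant (2.09, limma adjusted p = 0.0375). Of 17 complement genes 1 was called in each direction, c4b with 59.8 to 545 and 29.7 to 238 (1.62) and c3b.2 with 34.6 to 88.2 and 96.5 to 249.7 (-1.95).

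Collagen and matrix genes were lower in old wildtype. Of 69 measured, 14 were called lower and 1 higher (median -0.39), and at 18 every old wildtype library lay below every young mutant one. That order held for 10.3% of all genes. Set against young wildtype, old wildtype had 2 higher and 10 lower (median -0.38), and young mutant had 4 higher and 2 lower (median 0.02). The fibril-associated collagen col16a1 held 120.2, 96.3, 106, 54.6 and 73.8 normalised counts in old wildtype 1 to 5 and 342, 289.7, 290.2, 383 and 384 in young mutant 1 to 5. Young wildtype lay between, at 109.6 to 220.3 (log2 fold change of old wildtype over young mutant -1.94, SE 0.30, limma adjusted p = 0.000203). The basement membrane collagens col4a6 and col15a1b had log2 fold changes of -1.87 and -1.27, and the laminin chain lamc1 had -1.22, with 137 to 226 in old wildtype, against 391 to 515 in young mutant, and 337 to 555 in young wildtype libraries. The link protein hapln1a, which holds hyaluronan nets around neurons, was at 240.0 to 349 and 599 to 866 (-1.42). The member called higher was bgna, a small proteoglycan named after its values were seen, at 15.8 ± 3.52 and 6.67 ± 3.62 (1.23).

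Markers of leptomeningeal fibroblasts, which make much of the matrix around the brain, stood beside this. Of 29 such genes 3 were called lower and 0 higher (median -0.31). Their summed level was 134844 to 241412 normalised counts in old wildtype and 205726 to 262086 in young mutant. The called ones were the fibrillar collagen col1a1b, at 215 to 409.9 in old wildtype and 500.4 to 1113 in young mutant (-1.23), the microfibrillar col6a1 (-1.01) and the retinoic acid binding protein crabp2a (-1.30). Of 32 endothelial and pericyte genes 2 were higher and 3 lower (median -0.03), beside 3.22% and 4.62% of all genes. The receptor partner ramp2 was at 126 to 212 in old wildtype and 498 to 720.3 in young mutant (-1.72), and the vessel fenestra gene plvapb averaged 35.6 ± 19.3 and 92.4 ± 19.4 (-1.46). The pericyte regulator rgs5b had -1.32. The contractile gene tagln and the pericyte factor foxf2a were higher (1.60 and 1.45), with tagln at 84.7 in old wildtype 1 and 194 to 293 in old wildtype 2 to 5, against 50.5 to 85.5 in young mutant. The part of leptomeningeal cells in the matrix result was not tested.

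Skeletal muscle genes, which mark tissue outside the brain, were lower in old wildtype for 6 of 18 measured and higher for 0 (median -1.28). Over all genes 4.62% were called lower. Set against young wildtype, old wildtype had 0 higher and 5 lower (median -1.23), and young mutant had 1 higher and 0 lower (median 0.36). Their summed level was 311.505 to 455.907 normalised counts in old wildtype and 542.331 to 1373.84 in young mutant, and 1 member, the calcium buffer pvalb1, was at 0 throughout old wildtype and at 2.25 to 37.8 in young mutant. The sarcomeric actin actc1b held 97.3, 60.0, 96.7, 80.2 and 55.4 in old wildtype 1 to 5 and 232, 155, 453, 294 and 438 in young mutant 1 to 5 (log2 fold change -1.93, limma adjusted p = 0.000256). The myosin light chain mylpfa and pvalb3, another calcium buffer, had few counts, with means of 11.6 ± 11.4 and 4.81 ± 3.37 in old wildtype and 66.6 ± 35.0 and 31.7 ± 17.7 in young mutant.

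Chaperone genes were higher in old wildtype at 3 of 31 and lower at 0 (median 0.28), where 3.22% of all genes were called higher. Set against young wildtype, old wildtype had 1 higher and 0 lower, and young mutant had 0 higher and 3 lower. The constitutive chaperone HSPA8 held 3468, 2313, 2793, 3221 and 2963 normalised counts in old wildtype 1 to 5, against 1188, 1097, 925, 1128 and 1374 in young mutant 1 to 5. Young wildtype held 2049 to 3890.3, so the low group was young mutant (log2 fold change of old wildtype over young mutant 1.37, SE 0.25, limma adjusted p = 0.00089). The inducible hsp70.3 was at 70.08 to 356 in old wildtype and 29.8 to 63.7 in young mutant (1.56). The collagen chaperone serpinh1b was at 10.8 to 34.6 in old wildtype 2 to 5, 270.2 in old wildtype 1 and 2.59 to 7.25 in young mutant (2.86), with 46.7 to 109.7 in young wildtype. Of 39 genes of the unfolded protein and integrated stress response 1 was called in each direction. Asparagine synthetase, asns, held 371, 897, 1017, 971 and 1116 in old wildtype 1 to 5 and 268 to 333 in young mutant (1.43, limma adjusted p = 0.000149), and the feedback regulator trib3 381 to 626 and 876 to 1380.1 (-1.19).

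Single genes stood out in lists with few calls, where 3.22% of all genes were called higher and 4.62% lower. Of 67 lysosomal genes 2 were higher, both of them granulins, and 1 was lower (median -0.0040). The lower one was hexa, a hexosaminidase subunit that breaks down gangliosides, with 237, 183, 167, 152 and 152 normalised counts in old wildtype 1 to 5 and 418, 560.3, 469, 604 and 614 in young mutant 1 to 5 (log2 fold change -1.58, SE 0.24, limma adjusted p = 0.000185). Of 30 telomere genes 1 was called, the telomere replication factor stn1, at 55.5 to 85.9 in old wildtype, against 291 to 378 in young mutant, and 232 to 341 in young wildtype libraries (-2.34, limma adjusted p = 0.000211). Old mutant 1 and 2 had 106 and 65.4 for stn1 and old mutant 3 to 5 had 329.6 to 367. Over the telomere list the median log2 fold change was -0.14. The mean log2 level of that list was 7.72 to 7.90 in old wildtype and 7.97 to 8.03 in young mutant, without overlap, and 7.96 to 8.10 in young wildtype.

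Over all genes 3.22% were called higher and 4.62% lower, and the few calls that follow are given as single genes, not as shifts of their lists. In the Notch pathway 2 of 34 were higher, HEY1 and the target gene her12 (1.15), and 1 was lower, the DNA-binding partner RBPJ (ENSDARG00000052091) at 234 to 387 in old wildtype and 569 to 674 in young mutant (-1.01, limma adjusted p = 5.79e-05). In TGF-beta and BMP signalling 1 of 57 was higher, a gene annotated SMAD3 (ENSDARG00000010207; 1.08), and 3 were lower. These were the receptor bmpr2b, at 1469.7 to 1856 in old wildtype and 3333 to 4342 in young mutant (-1.17, limma adjusted p = 1.61e-05), the ligand gene inhbab (-1.55) and gdf2. Markers of neighbouring regions and of the pituitary also held single calls. In the habenula and tectum list 1 of 17 was higher, the transcription factor tal1, at 272 to 381 in old wildtype and 77.4 to 146 in young mutant (1.62, limma adjusted p = 4.56e-05), and 2 were lower, among them the axon guidance receptor NRP1 (-1.08). Of 15 pituitary and hypothalamic genes 2 were higher, the gonadotropin subunit fshb at 30.7 to 34.4 and 6.96 to 18.8 (1.46) and the neuropeptide kiss2 at 2.29 to 24.2 and 1.06 to 6.74 (1.57). The progenitor gene nkx2.2b was the 1 of 16 oligodendrocyte precursor genes called (20.9 ± 16.5 and 2.62 ± 2.46), and the heme synthesis gene alas2 the 1 of 17 erythroid genes (509 ± 243 and 166 ± 21.1).

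Several gene groups held no called gene in limma. Neuronal identity genes (27, median -0.03), synaptic vesicle genes (29, median 0.10), neuropeptides (32, median -0.0048) and myelin genes (18, median -0.28) were among them. At 8 of the 29 synaptic vesicle genes every old wildtype library lay above every young mutant one, which held for 10.5% of all genes. The synaptic fusion gene SNAP25 (ENSDARG00000020609) averaged 54912 ± 992 normalised counts in old wildtype and 50431 ± 2631 in young mutant. The myelin gene mbpa averaged 12536 ± 4064 and 15809.5 ± 2439 (SD, n = 5 each). Ribosomal protein genes were shifted by small amounts, with 67 of 75 below 0 and a median of -0.15. An example is RPS2, at 4297 ± 415 in old wildtype and 5405 ± 549 in young mutant (log2 fold change -0.33, limma adjusted p = 0.00329, under the fold threshold). The nuclear-encoded respiratory chain (49, median 0.08), the mitochondrial genome (12, median 0.08), ciliated ependyma and choroid plexus (31, median 0) and the olfactory list (13, median -0.37) had none called either. Pineal genes had none of 35 called, with a median of -0.99. The melatonin enzyme ASMT was at 6039 in old wildtype 1 and 17.9 to 82.2 in old wildtype 2 to 5, against 4265 and 5572 in young mutant 2 and 4 and 18.0 to 28.5 in young mutant 1, 3 and 5. The rod transducin GNAT1 had the same split. Without these 3 libraries, 598 genes were called higher and 828 lower. That fit kept the young wildtype and old mutant libraries with high pineal genes.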

How the data were processed

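RNA of whole telencephali was sequenced after SMART-Seq v4 amplification, and the libraries were processed together and multiplexed on 1 lane. The submitters' processing notes name STAR, GRCz10 and DESeq2 3.9. The deposited table holds 24030 genes in 20 samples as a signal that the authors made by dividing gene counts by a size factor for each library, so it carries a true 0. Whole reads were recovered from its steps for 100% of values, within a relative tolerance of 1e-06, and gave the depth of each library. Gene symbols came from a table of gene names for 19692 genes and from the study's own tables for 2494, and 1844 had no symbol. No sequences were used.

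Groups were taken from the sample titles. Genes averaging 5 or more normalised counts were tested on log2(normalised count + 1) with limma 3.58.1 (R 4.3.3, trended and robust variances) in a model of 4 groups over 20 libraries, with the contrast of old wildtype over young mutant and Benjamini-Hochberg adjustment over 19877 genes. Single genes were also tested by exact permutation. The scripts were tested on simulated data. The alternatives tried were a pseudocount of 0.25 or of 4, leaving the filter out or raising it to 50, other scalings, the recovered reads in edgeR 4.0.16 and in DESeq2 1.42.0, other sets of libraries and leaving out each library in turn. Figures were drawn with matplotlib 3.10.9, and descriptions were computed in Python 3.11.15 with pandas 2.3.3 and scipy 1.17.1. Named genes were drawn from 4 sets: genes the study names (1 of them is not reported here), the 12 called genes with a symbol and the largest fold changes in each direction at a mean of at least 50, up to 5 called genes with the smallest p of each list (for lists with no call the 2 with the highest mean), and every called gene of sterol synthesis, DNA replication and mitosis. Further genes are marked as named after their values were seen, and the called genes CCR7, il2rb, cd79b, foxf2a, rgs5b, tlr5a, kiss2, fshb, her12, inhbab, CMKLR1 and mfap4 are further members of short lists of calls. The comparison, the lists and the rules were chosen with earlier results of these data known. The replicate number gave no pairing of the libraries.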

Additional observations from a re-analysis of the deposited data

Results flagged for a closer look

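In groups of 5 libraries, 50 of 304 gene and group pairs among the named genes held a library whose gap to the nearest other, divided by the range of the group, was above Dixon's limit of 0.71. Chance flags about 1 in 20 such pairs. Most fell on the same few libraries, and genes of 1 pathway are not independent of each other.

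Young mutant 1 was the high library of its group at the sterol genes hmgcs1 (3963 normalised counts), pmvk (186), mvda (399.9), fdft1 (216), lss (414), cyp51 (3617), tm7sf2 (575), ebp (627), sc5d (728), sqlea (1141) and hmgcra (209), and the low one at plvapb (58.3). Old wildtype 1 was the low library at mvda (211), lss (270.2), tm7sf2 (417), ebp (218), sc5d (387), idi1 (662), PRC1 (275), nfil3-5 (678), csrnp1a (116) and igf1 (9.16). It was the high one at gadd45ba (2707), GADD45B (434), fosaa (156), DUSP1 (671), il15l (275), c3b.2 (88.2), hsp70.3 (356), serpinh1b (270.2), ASMT (6039) and GNAT1 (7263).

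Old wildtype 5 was high at grna (2153), stat1b (1099.5), ifi27.2 (992), ifih1 (416) and ftr14 (220.4). Young mutant 3 was high at stat1b (66.5), ifi27.2 (32.8), ifi27.3 (6.91), c4b (238), col1a1b (1113) and bub1bb (57.0). Old wildtype 2 was high at pmvk (263) and ccl38.6 (27.5) and low at nuf2 (70.8). Young mutant 2 was high at kcnk5a (7.86) and gdf2 (113). Old wildtype 4 was high at fosb (506), and young mutant 4 was low at stat6 (52.2).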

How the results depend on the processing

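Of the 1558 called genes, none was called in the opposite direction under the 26 alternatives. The filter at a mean of 50, which left part of them untested, kept 842. Dropping the fold threshold keeps all of them by construction. The remaining alternatives kept 1148 to 1533. The counts of 640 higher and 918 lower genes became 363 and 488 with a filter at a mean of 50, which tests fewer genes, and 3023 and 3014 with no fold threshold. Leaving out single libraries gave 542 to 721 higher and 793 to 1131 lower genes. Quantile normalisation gave 797 higher and 780 lower, a share of 50.5% higher against 41.1%. Sterol synthesis kept a median above 0, at 0.988 to 1.468 without single libraries and 1.725 without old wildtype 1 and young mutant 1, an alternative chosen after seeing the data, as was the fit without old mutant libraries (692 higher, 1011 lower).

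Libraries of the same replicate number did not deviate together (correlations of -0.342, -0.203, 0.0954, -0.244 and 0.142). With a replicate block 612 genes were higher and 889 lower, and 7 sterol synthesis genes were called in place of 12. Over the named genes under 26 alternatives, of which the filter at a mean of 50 left part of the genes untested, 377 values lost their call, 20 gained one and none reversed. Genes averaging under 5 normalised counts were left out by choice, and with no such filter 1852 of 24030 genes were called. Members with few counts have fold changes that depend on the pseudocount.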
